A study of Mus musculus with 19 samples.

Results

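The genes described here are 10 immediate early genes, Fos, Fosb, Jun, Junb, Egr1, Egr2, Ier2, Dusp1, Atf3 and Nr4a1, among 22180 genes measured on 19 Affymetrix arrays of mouse spleen RNA. They were chosen by name, and a probe set stood for a gene when it was annotated to that symbol and no other. Each of the 10 symbols had 1 such probe set, and no member was lost to a filter. The spleens came from 4 Rosa26-HGAL+Aid-Cre, 5 Rosa26-HGAL+Mb1-Cre and 4 Rosa26-HGAL+Sca1-Cre mice with tumours, from 3 Rosa26-HGAL+Sca1-Cre mice before tumours, and from 3 wild-type mice. HGAL is a human adaptor protein of germinal centre B cells, placed at the mouse Rosa26 locus and combined with Cre. The Cre drivers carry the names of Aid, the deaminase of activated B cells, of Mb1, a B cell receptor chain, and of Sca1, a surface marker of blood stem and progenitor cells. All mice lived in a conventional facility with exposure to common pathogens, the RNA was that of total spleen with no sort of B cells, and the labels used here carry no age or sex. The controls were wild type, so HGAL, Cre and tumour cannot be told apart in a comparison with them.

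Immediate early genes are transcribed within minutes of a stimulus, without new protein synthesis, when kinases such as ERK, JNK and p38 act on transcription factors already bound at their promoters. Serum response factor with its ELK partners binds the CArG box, and CREB binds the cyclic AMP response element (CRE). In lymphocytes these genes respond to antigen receptor signalling, and in any tissue they also respond to stress and to handling of the tissue. Most of their transcripts are short-lived. Fos, Fosb, Jun and Junb encode subunits of the dimeric factor AP-1, and Atf3 a related basic leucine zipper protein. Egr1 and Egr2 encode zinc finger factors, Nr4a1 an orphan nuclear receptor, Ier2 a small nuclear protein, and Dusp1 a phosphatase that switches off p38, JNK and ERK.

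The promoters are shown as background, and their part in the values described below was not tested. The RefSeq promoter table (GRCm38.p6, 250 bases before to 50 after each annotated start) held 8 of the 10 members, and Egr1 and Ier2 were not in it. Each stretch below is 120 bases long, 5′ to 3′ on the gene's strand, and ends at the base before the annotated start, except that of Dusp1, which was placed to hold its CRE. Of the 5 annotated starts of Egr2 the stretch with the most matches is shown. Capitals mark matches on either strand to the motifs named after the sequences.
Fos (chr12:85473770-85473889, plus strand): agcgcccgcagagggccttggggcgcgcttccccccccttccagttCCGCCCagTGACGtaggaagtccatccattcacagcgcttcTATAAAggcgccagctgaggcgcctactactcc
Fosb (chr7:19310046-19310165, minus strand): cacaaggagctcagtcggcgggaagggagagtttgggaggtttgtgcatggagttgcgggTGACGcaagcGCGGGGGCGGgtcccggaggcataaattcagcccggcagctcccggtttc
Jun (chr4:95052223-95052342, minus strand): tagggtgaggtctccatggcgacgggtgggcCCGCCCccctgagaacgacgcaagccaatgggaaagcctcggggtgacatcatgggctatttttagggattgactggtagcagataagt
Junb (chr8:84978749-84978868, minus strand): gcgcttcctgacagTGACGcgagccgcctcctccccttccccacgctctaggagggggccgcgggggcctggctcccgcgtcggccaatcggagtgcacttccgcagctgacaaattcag
Egr2 (chr10:67537749-67537868, plus strand): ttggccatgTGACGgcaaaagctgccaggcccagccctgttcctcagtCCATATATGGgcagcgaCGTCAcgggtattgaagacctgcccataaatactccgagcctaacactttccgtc
Dusp1 (chr17:26508513-26508632, minus strand): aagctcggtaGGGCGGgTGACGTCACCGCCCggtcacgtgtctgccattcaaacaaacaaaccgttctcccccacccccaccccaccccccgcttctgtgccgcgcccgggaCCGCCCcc
Atf3 (chr1:191183334-191183453, minus strand): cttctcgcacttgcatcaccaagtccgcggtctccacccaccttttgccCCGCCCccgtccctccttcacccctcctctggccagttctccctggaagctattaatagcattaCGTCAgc
Nr4a1 (chr15:101266726-101266845, plus strand): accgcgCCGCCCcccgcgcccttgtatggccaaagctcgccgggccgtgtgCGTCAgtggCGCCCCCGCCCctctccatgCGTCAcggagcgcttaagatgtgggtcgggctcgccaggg
The searched motifs were the CRE (TGACGTCA), its half-site (TGACG), the AP-1 site (TGANTCA), the EGR site (GCGNGGGCG), the SP1 box (GGGCGG), the TATA box (TATAAA) and the CArG box. The half-site lies within the CRE and was added after the sequences had been seen. It was present in 7 of the 8 members, all except Jun, and in 20.8% of all 32851 promoter windows. The SP1 box was present in 7 of the 8, all except Junb, and in 35.7% of windows. The full CRE was in Dusp1 alone of the 8 and in 1.79% of windows, and the CArG box was in Egr2 alone and in 1.63% of windows. The EGR site was in Fosb and Nr4a1 (5.55% of windows), the TATA box in Fos and Junb (13.6%), and the AP-1 letters were in none of the 8 (7.81%). These counts cover whole windows and all starts. In Junb the TATA letters begin at the annotated start, outside the stretch shown, and the SP1 boxes of Egr2 lie in windows of other starts. In Fosb and Nr4a1 the EGR site overlaps an SP1 box. The windows reach 250 bases before a start, so a motif farther upstream was not searched. The window of a gene with several starts gives more chances of a match, and a match is a run of letters, with no binding measured here.

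Facts of the whole set of arrays that touch these genes are few. All 190 member values, between 5.45 and 10.95 on the log2 scale, lay above the 40th percentile of their array (4.98 to 5.10), which was taken as background. The B cell genes Cd79a, Cd79b, Ms4a1 and Cd22 were present in every spleen, with Cd79a between 8.97 and 12.38. Exocrine pancreas genes stood highest in 2 arrays, called below the arrays with pancreatic transcripts. Relative to wild type, the mean of 12 such genes reached 2.65 for replicate 2 of the Mb1-Cre tumours and 0.82 for replicate 2 of the wild-type group itself. The wild-type mean includes that array. Pre-tumour replicates 1, 2 and 3 stood at 0.26, 0.04 and -0.22, and the remaining arrays between -0.55 and -0.34. Transcripts of Y-linked genes were read in 11 of the 19 arrays, among them 1 Aid-Cre, 4 Mb1-Cre and 2 Sca1-Cre tumours, 1 pre-tumour spleen and all 3 wild-type spleens.

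No immediate early gene was called different between any groups, and each of the 10 varied more between mice of 1 group than the median gene. For all 13 tumours against wild type, 9 of the 10 members had a higher mean in tumours, with a median difference of 0.505 on the log2 scale, beside 51.5% of all genes with a higher mean and a median of 0.00489. Fos, Jun and Egr1 had the largest differences, each over 1 on the log2 scale. None of the 10 was called (limma, Benjamini-Hochberg adjusted p under 0.05 over 22180 genes, smallest adjusted p = 0.489), in a comparison that called 0.0180% of genes. At an unadjusted p under 0.05, 3 members were higher, beside 3.90% of all genes. In spleen RNA, a higher share of expressing cells and more RNA per cell cannot be told apart.

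Among the AP-1 genes, Fos had the widest range. Its log2 value was 9.09, 9.34, 10.09 and 9.40 in the Aid-Cre tumours, 10.95, 8.93, 9.63, 8.06 and 8.01 in the Mb1-Cre tumours, 9.92, 8.22, 7.51 and 8.28 in the Sca1-Cre tumours, 8.52, 9.10 and 8.64 in the pre-tumour spleens, and 7.85, 5.77 and 9.31 in wild type. The Aid-Cre tumours were high and close together, while wild type replicate 2 lay far below every other array and wild type replicate 3 lay among the tumours. The difference between all tumours and wild type was 1.38 ± 0.64 (SE), or 2.61-fold (limma adjusted p = 0.546). Without wild type replicate 2 it was 0.448 ± 0.641.

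Jun, the partner of Fos in AP-1, was the member with the smallest p. It measured 7.70, 8.08, 9.33 and 8.27 in the Aid-Cre tumours, 9.68, 8.82, 8.50, 7.32 and 7.93 in the Mb1-Cre tumours, 10.23, 8.98, 8.22 and 8.48 in the Sca1-Cre tumours, 8.31, 8.83 and 8.24 in the pre-tumour spleens, and 7.74, 6.39 and 8.09 in wild type. All Sca1-Cre tumours and all pre-tumour spleens lay above all wild-type spleens, the Aid-Cre and Mb1-Cre tumours overlapped with wild type, and 9 of 13 tumours exceeded every wild-type array. The difference between all tumours and wild type was 1.18 ± 0.47 (SE), 2.27-fold (limma adjusted p = 0.489), and 0.673 ± 0.527 without wild type replicate 2.

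Junb, an AP-1 subunit that can oppose Jun, varied less. It measured 8.84, 8.96, 9.90 and 9.31 in the Aid-Cre tumours, 10.14, 8.78, 8.99, 8.57 and 8.18 in the Mb1-Cre tumours, 10.04, 8.81, 8.91 and 8.92 in the Sca1-Cre tumours, 8.92, 8.91 and 8.98 in the pre-tumour spleens, and 8.55, 8.24 and 8.96 in wild type. In the Mb1-Cre and Sca1-Cre lines replicate 1 stood over 1 log2 unit above the next tumour, and the 3 pre-tumour values nearly coincided. All tumours and wild type differed by 0.535 ± 0.324 (SE; limma adjusted p = 0.648). Fosb ranged from 5.59 to 7.89, with a median of 6.51, in the 13 tumours, from 6.04 to 6.75 in pre-tumour spleens and from 5.45 to 6.78 in wild type. Its groups overlapped throughout, and 5 of 13 tumours exceeded every wild-type array.

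Egr1, a factor downstream of ERK signalling, measured 6.66, 8.49, 8.66 and 7.53 in the Aid-Cre tumours, 8.82, 7.50, 7.94, 6.06 and 6.71 in the Mb1-Cre tumours, 8.52, 6.90, 7.34 and 7.71 in the Sca1-Cre tumours, 7.24, 7.88 and 7.70 in the pre-tumour spleens, and 6.31, 6.30 and 7.09 in wild type. All pre-tumour spleens and 9 of 13 tumours lay above every wild-type spleen, and Mb1-Cre tumour replicate 4 lay below all of them. The difference between all tumours and wild type was 1.05 ± 0.48 (SE), 2.07-fold (limma adjusted p = 0.544). Unlike those of Fos and Jun, it was little smaller without wild type replicate 2, at 0.920 ± 0.586.

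Egr2, which is induced with Egr1 in stimulated lymphocytes, had the smallest spread of the 10. Its mean and SD were 7.09 ± 0.76 in the 4 Aid-Cre tumours, 7.10 ± 0.31 in the 5 Mb1-Cre tumours, 7.24 ± 0.10 in the 4 Sca1-Cre tumours, 7.12 ± 0.15 in the 3 pre-tumour spleens and 6.92 ± 0.12 in the 3 wild-type spleens. All 4 Sca1-Cre tumours, at 7.15 to 7.36, lay above the wild-type range of 6.82 to 7.05, while Aid-Cre replicates 1 and 2, at 6.67 and 6.23, lay below it. Over all tumours Egr2 differed from wild type by 0.222 ± 0.240 (SE; limma adjusted p = 0.816).

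Ier2 was the member most often above wild type. It measured 7.82, 8.15, 8.40 and 7.79 in the Aid-Cre tumours, 9.08, 7.56, 7.82, 7.37 and 7.48 in the Mb1-Cre tumours, 8.76, 7.58, 7.61 and 7.57 in the Sca1-Cre tumours, 7.93, 7.81 and 8.01 in the pre-tumour spleens, and 7.50, 7.40 and 7.45 in wild type. The 3 wild-type values were close together, and 11 of 13 tumours and all pre-tumour spleens exceeded them. Tumours as a whole differed from wild type by 0.476 ± 0.289 (SE; limma adjusted p = 0.650).

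Nr4a1, a marker of recent antigen receptor signalling in B and T cells, showed no common direction. It measured 7.66, 7.38, 10.79 and 10.30 in the Aid-Cre tumours, 10.02, 8.44, 8.97, 7.42 and 7.81 in the Mb1-Cre tumours, 8.86, 8.07, 8.07 and 7.86 in the Sca1-Cre tumours, 8.29, 8.23 and 8.32 in the pre-tumour spleens, and 9.12, 8.43 and 8.30 in wild type. The Aid-Cre tumours fell into a low pair and a high pair around the wild-type range, and 3 of 13 tumours lay above all wild-type arrays while 7 lay below all of them. Over all tumours the difference from wild type was -0.02 ± 0.60 (SE; limma adjusted p = 0.995). The B cell marker list moved with Nr4a1 within the Aid-Cre line: relative to the wild-type mean, the mean of 9 B cell genes stood at -1.37 and -3.71 in replicates 1 and 2 and at 0.22 and 0.02 in replicates 3 and 4. The mean of 12 neutrophil genes stood at 1.61 and 2.21 in the first pair and at -1.82 and -1.59 in the other. For 7 erythroid genes the mean stood at 0.97 and 1.17 in the first pair and at -2.14 and -0.78 in the other. In the Mb1-Cre line the B cell list did not follow Nr4a1. There replicate 1, highest in Nr4a1, had a B cell mean of -1.64, and replicate 2, at 8.44 in Nr4a1, had the highest, -0.51. Among Sca1-Cre tumours replicate 1 was highest in both, at 8.86 and -0.03. The mean of 8 T cell genes was -1.0 and -1.89 in the first Aid-Cre pair and 0.35 and 0.06 in the other. In Mb1-Cre replicates 1 to 5 it was 0.20, -0.27, -0.45, -1.13 and -1.28, highest where Nr4a1 was highest. Among Sca1-Cre tumours the T cell mean was highest in replicate 3, at 1.06, where Nr4a1 was 8.07. The part of cell makeup in the Nr4a1 values was not tested.

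The phosphatase gene Dusp1 and the stress factor gene Atf3 overlapped between all groups. Dusp1 ranged from 8.25 to 10.43 (median 9.20) in tumours, from 8.74 to 9.28 in pre-tumour spleens and from 8.22 to 9.43 in wild type. Atf3 ranged from 6.33 to 8.52 (median 6.66) in tumours, from 6.35 to 7.02 in pre-tumour spleens and from 6.23 to 7.21 in wild type. Their differences between all tumours and wild type were 0.310 ± 0.344 and 0.131 ± 0.367 (SE; limma adjusted p = 0.822 and 0.942), and both turned below 0 without wild type replicate 2, at -0.060 and -0.127.

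**Figure D1:**
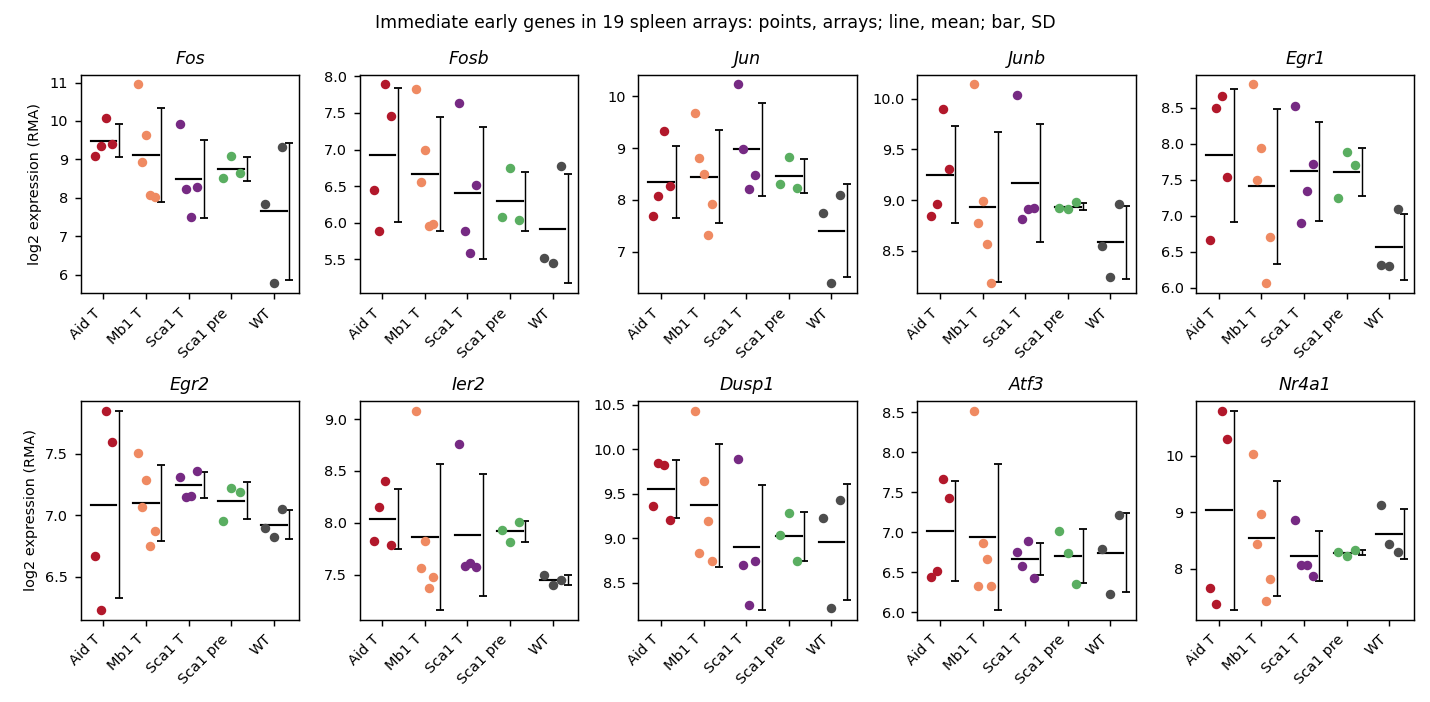
Log2 expression (RMA) of each of the 10 genes in the 19 arrays, with points for arrays, a line for the group mean and a bar for the SD; T is tumour, pre is pre-tumour and WT is wild type. In most panels the groups overlap. Single tumour arrays stand far above the rest of their group in some panels, as Atf3 at 8.52 in Mb1-Cre tumours. Nr4a1 reaches 10.79 and 10.30 in Aid-Cre tumours.

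The comparison with wild type rested on few arrays. Wild type replicate 2 was the lowest of all 19 arrays for 5 members and among the lowest 3 for 8, and it was one of the 2 arrays with pancreatic transcripts. Without it, 7 of 10 members had a higher mean in tumours and the median difference was 0.406. There were then 0 members with an unadjusted p under 0.05 on the higher side, beside 2.45% of all genes. Without Mb1-Cre tumour replicate 1 the median was 0.404, and without wild type replicate 3 it was 0.635. With the sex read from Y-linked transcripts and Xist as a covariate, the median difference was 0.307, and 0 members against 2.73% of genes had an unadjusted p under 0.05 on the higher side. The part of pancreatic tissue or sex in these values was not tested.

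**Figure D2:**
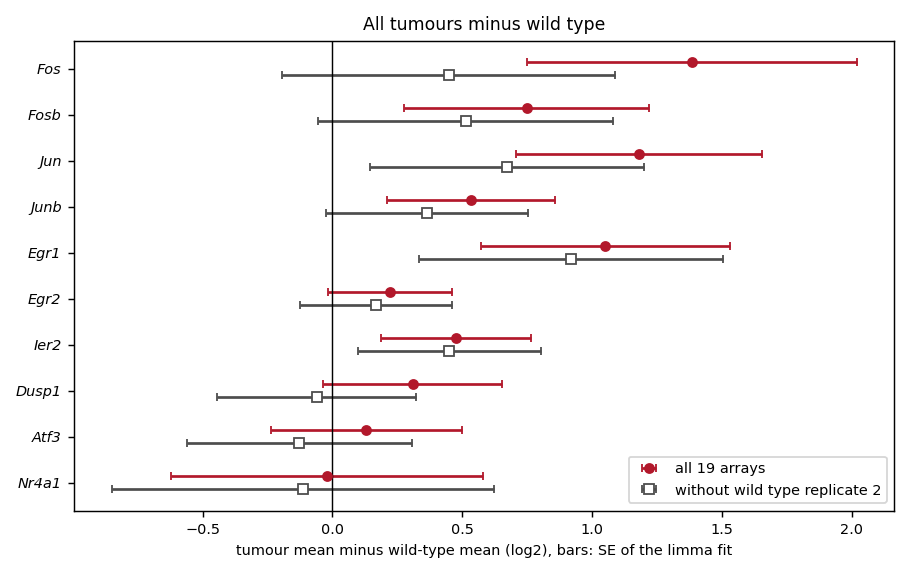
Difference of means between all tumours and wild type for each gene (log2, bars are the SE of the limma fit), with all 19 arrays (filled circles) and without wild type replicate 2 (open squares). The difference of Fos shrinks to 0.448 without that array, while that of Egr1 stays at 0.920.

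Each tumour line was then set against wild type by itself. These comparisons share the 3 wild-type arrays. In Aid-Cre tumours all 10 members had a higher mean than in wild type, with a median difference of 0.631 beside 0.00543 over all genes. Fos stood highest, at 1.84 ± 0.76 (SE; limma adjusted p = 0.536), followed by Egr1 at 1.27 ± 0.57 (limma adjusted p = 0.578). Without wild type replicate 2 the difference of Fos was 0.902. No member was called, where 0.0180% of genes were, and 2 members against 3.95% of genes were higher at an unadjusted p under 0.05. Only Ier2 of the 10 had every Aid-Cre tumour above every wild-type spleen, as had 3.75% of genes. Without Aid-Cre tumour replicate 3, or without wild type replicate 2, 0 members had an unadjusted p under 0.05.

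In Mb1-Cre tumours 9 of 10 members had a higher mean than in wild type, with a median difference of 0.407 beside 0.000247 over all genes. Fos led again, at 1.48 ± 0.72 (SE; limma adjusted p = 0.455), and stood at 0.539 without wild type replicate 2. No member was called, as no gene was (0%), 0 members against 5.13% of genes were higher at an unadjusted p under 0.05, and in 0 members did all Mb1-Cre tumours exceed all wild-type spleens, against 4.10% of genes. That count at an unadjusted p was 3 (Fos, Jun and Egr1) without Mb1-Cre tumour replicate 4, 2 (Fos and Jun) without wild type replicate 3 or with Sca1-Cre tumour replicate 1 left out, and 1 (Fos) without Mb1-Cre tumour replicate 5. The median difference was 0.122 without Mb1-Cre tumour replicate 1.

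In Sca1-Cre tumours 7 of 10 members had a higher mean than in wild type, with a median difference of 0.458 beside -0.00404 over all genes. Here Jun, at 1.57 ± 0.56 (SE; limma adjusted p = 0.297), stood before Egr1, at 1.05 ± 0.57 (limma adjusted p = 0.515), while Fos stood at 0.84 ± 0.76. The difference of Fos was -0.0964 without wild type replicate 2 and 1.67 without wild type replicate 3. No member was called, where 0.0406% of genes were, and Jun was the 1 member with an unadjusted p under 0.05, against 6.12% of genes. Jun, Egr2 and Ier2 had every Sca1-Cre tumour above every wild-type spleen, as had 6.21% of genes. The count at an unadjusted p was 0 without Sca1-Cre tumour replicate 1 and without wild type replicate 2, and 2 (Fos and Jun) without wild type replicate 3. The median difference was 0.217 without that tumour.

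The pre-tumour spleens of the Sca1-Cre line also stood above wild type in 8 of 10 members, with a median difference of 0.363 beside 0.00945 over all genes. Fos (1.11 ± 0.81, SE), Jun (1.05 ± 0.60) and Egr1 (1.04 ± 0.61) differed most, with limma adjusted p = 0.894, 0.887 and 0.887. Without wild type replicate 2 these were 0.178 for Fos, 0.543 for Jun and 0.908 for Egr1. No member was called, where 0.00451% of genes were, and 0 members against 3.07% of genes were higher at an unadjusted p under 0.05. Without wild type replicate 3 that count was 1 (Fos). Jun, Egr1 and Ier2 had all 3 pre-tumour spleens above all 3 wild-type spleens, as had 8.35% of genes. The median difference was 0.162 without wild type replicate 2. Over all 13 tumours no member lay wholly above wild type, as 0.243% of genes did.

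Tumours and pre-tumour spleens of the Sca1-Cre line differed little in these genes. In tumours 5 of 10 members had a higher mean than before tumours, with a median difference of -0.0113, and the smallest p belonged to Jun (0.52 ± 0.56, SE; limma adjusted p = 0.894). Aid-Cre tumours against the same pre-tumour spleens had 8 of 10 members higher, with a median of 0.312, and Mb1-Cre tumours 5 of 10, with a median of 0.117. Those 3 comparisons called 0% of genes and no member. At an unadjusted p under 0.05 in either direction they held 0 members, beside 5.34% of genes for Sca1-Cre, 8.17% for Aid-Cre and 18.2% for Mb1-Cre tumours. Each median rested on the high array of its line: it was -0.286 without Sca1-Cre tumour replicate 1, 0.0965 without Aid-Cre tumour replicate 3 and -0.141 without Mb1-Cre tumour replicate 1.

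Between tumour lines, Dusp1 differed most by p. It was higher in Aid-Cre than in Sca1-Cre tumours by 0.66 ± 0.38 (SE; limma adjusted p = 0.462) and in Mb1-Cre than in Sca1-Cre tumours by 0.47 ± 0.36 (limma adjusted p = 0.518). No member was called in the comparisons between lines, which called 0.0451% of genes for Aid-Cre against Mb1-Cre, 0.0451% for Aid-Cre against Sca1-Cre and 0.0406% for Mb1-Cre against Sca1-Cre. Nor did any member have an unadjusted p under 0.05, as 8.76%, 13.6% and 17.6% of genes did in those comparisons. The median difference was 0.225 for Aid-Cre against Mb1-Cre, 0.281 for Aid-Cre against Sca1-Cre and 0.122 for Mb1-Cre against Sca1-Cre tumours. Without Aid-Cre tumour replicate 3 the Aid-Cre medians were -0.0028 and 0.0872, and without Mb1-Cre tumour replicate 1 the third was -0.181. The order of group means differed from gene to gene. The Aid-Cre tumours came out highest for 8 of 10 members and the Sca1-Cre tumours for Jun and Egr2. In Jun and Egr2 the Aid-Cre tumours came next above wild type in rank. Wild type was lowest for 7 members, and the Sca1-Cre tumours for Dusp1, Atf3 and Nr4a1. Of the 40 steps between neighbouring means, 1 exceeded the larger SD of the 2 groups, the step of 0.94 in Jun between Aid-Cre tumours and wild type. A moderated F-test over the 5 groups called 0.0451% of genes and no member (smallest member adjusted p = 0.442 for Jun), and 0 members against 15.2% of genes had an unadjusted F-test p under 0.05.

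The spread of these genes within groups was wide. The pooled within-group SD was 1.07 for Fos, a value that 0.803% of genes exceeded, and 1.02 for Nr4a1, which 1.01% exceeded. For the 10 members the median was 0.706, against 0.179 over all genes, and Egr2, the steadiest, had 0.399, which 12% of genes exceeded. The genes were not matched for level: all 10 members had a mean above that of the median gene, and RMA compresses low values. The groups accounted for a median of 18.5% of a member's variance over the 19 arrays and for a median of 29% over all genes. Group accounted for the largest share in Jun, at 32.6%, and the smallest in Atf3, at 6.62%. These shares are not corrected for the number of groups, so some share is found even without any group difference.

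**Figure D3:**
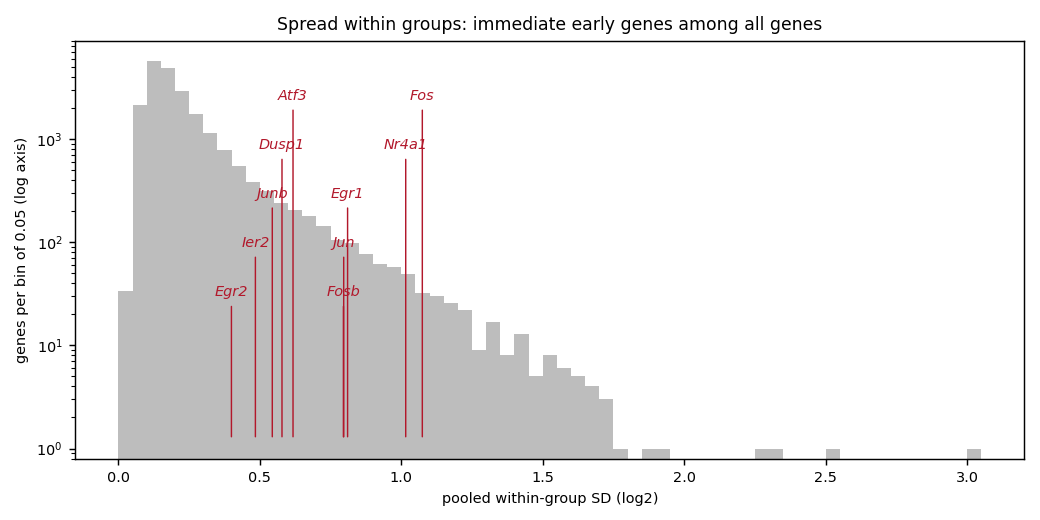
Pooled within-group SD (log2) of all 22180 genes as a histogram with a log count axis, and of the 10 immediate early genes as labelled vertical lines whose heights carry no value. All 10 lie right of the median of all genes, 0.179, with Fos at 1.07 and Egr2 at 0.399.

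A single tumour spleen per line held most of the high values. Mb1-Cre tumour replicate 1 was the highest of all 19 arrays for 6 members and among the highest 3 for all 10. Aid-Cre tumour replicate 3 was among the highest 3 for 9, and Sca1-Cre tumour replicate 1 for 7. Averaged over the 10 genes these arrays reached 9.30, 9.04 and 8.79, against 7.34 to 8.43 in the other tumours, 7.82 to 8.08 in pre-tumour spleens and 6.93 to 7.97 in wild type. At the other end, Mb1-Cre tumour replicates 4 and 5 averaged 7.34 and 7.40, and wild type replicate 2 averaged 6.93. Aid-Cre tumour replicate 2 had the lowest Egr2 and Nr4a1 of all arrays but the third-highest Dusp1, so the genes did not move wholly as 1 unit.

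**Figure D4:**
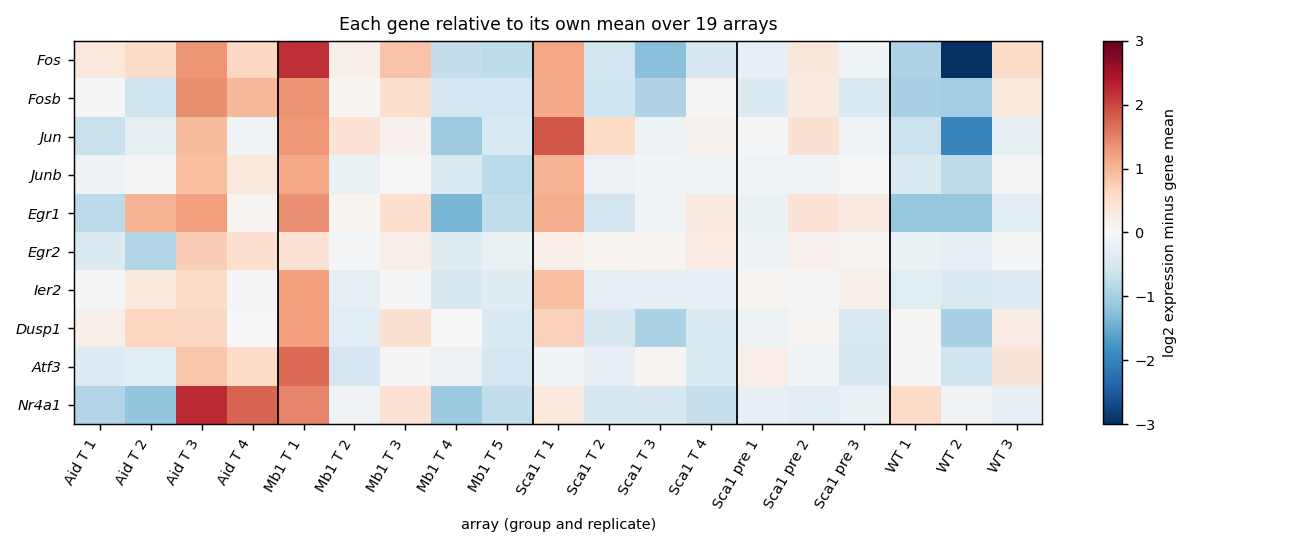
Each gene's log2 value minus its own mean over 19 arrays, by array, from Aid-Cre tumours on the left to wild type on the right, with red above and blue below the mean. The columns of Aid-Cre replicate 3, Mb1-Cre replicate 1 and Sca1-Cre tumour replicate 1 are red nearly throughout, and the column of wild type replicate 2 is the bluest.

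The members went up and down together across mice. All 45 pairs had a Pearson r above 0 over the 19 arrays, with a median of 0.712, against 0 over all pairs of genes (Spearman median 0.633). The correlations are given as a description, since the points share arrays, RNA extracts and normalization. The median was 0.720 after the group means were taken out. It was 0.585 when each pair left out the 2 arrays farthest from the median of 1 of its genes. The closest pair was Junb and Ier2, with r = 0.896, and the loosest was Egr2 and Dusp1, with r = 0.194. Junb followed the mean of the other 9 most closely (r = 0.938), and Egr2 and Nr4a1 least (r = 0.649 each). Egr2 and Nr4a1 were themselves alike, with r = 0.796, the highest r that either had with any member.

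Genes outside the 10 with the same pattern were ranked by r with the 10-gene mean over the 19 arrays. The 10 highest, leaving out predicted genes, small RNAs and receptor segments, were Ptgs2 (0.934), Klf6 (0.867), Zfp36 (0.835), Ifna12 (0.825), Rgs2 (0.819), Meak7 (0.818), Scn3a (0.807), Plk2 (0.790), Nck1 (0.778) and Pmaip1 (0.771). Ptgs2 encodes the inducible cyclooxygenase, Klf6 a zinc finger factor, Zfp36 a protein that speeds the decay of AU-rich transcripts, and Plk2 a polo-like kinase. These 4 also stand on a list of 34 other measured immediate early and early response genes. Rgs2 encodes a regulator of G-protein signalling and Pmaip1 the death-promoting protein NOXA. Ifna12, at 3.56 to 4.06, and Scn3a, at 3.78 to 4.48, lay below the background level on every array, so their values are not exact.

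The other 34 immediate early and early response genes as a group followed the 10, with r = 0.875 between the 2 means and 29 of 34 genes with r above 0, against 12204 of 22170 genes. For all tumours against wild type, 25 of the 34 had a higher mean, with a median difference of 0.107, and none was called. The AP-1 genes Jund (0.431 ± 0.172, SE) and Fosl2 (0.459 ± 0.199) and the Nr4a1 relative Nr4a2 (1.14 ± 0.52) had the smallest p, with limma adjusted p = 0.490, 0.521 and 0.546. Jund averaged 9.77 ± 0.32 (SD, n = 13) in tumours and 9.34 ± 0.23 (SD, n = 3) in wild type. Nr4a2 averaged 6.25 ± 0.93 in tumours and 5.14 ± 0.11 in wild type (SD, same n).

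Among 11 inhibitors that act in feedback on these pathways, 7 had a higher mean in tumours, with a median difference of 0.175, and all 11 correlated above 0 with the 10-gene mean (r = 0.602 for the list mean). Spry1, an inhibitor of receptor tyrosine kinase signalling, had the smallest p, with 6.06 ± 0.24 (SD, n = 13) in tumours and 5.54 ± 0.28 (SD, n = 3) in wild type, a difference of 0.528 ± 0.141 (SE; limma adjusted p = 0.289). Its relatives Spred1 and Spry2 differed by 0.553 ± 0.183 and 0.460 ± 0.156 (limma adjusted p = 0.412 and 0.418). None of the 11 was called.

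Of 14 kinases and factors upstream, 7 had a higher and 7 a lower mean in tumours, with a median of -0.031. The CREB coactivator gene Crtc2 (-0.425 ± 0.168, SE) and the SRF partner genes Elk1 (-0.212 ± 0.093) and Elk3 (-0.348 ± 0.156) had the smallest p, on the lower side (limma adjusted p = 0.483, 0.527 and 0.541). Of 14 other basic leucine zipper genes 11 had a higher mean, with a median of 0.067. Jdp2, whose protein pairs with Jun and represses, differed by 0.656 ± 0.265 (limma adjusted p = 0.494), Atf7 by -0.389 ± 0.199 (0.586) and Maf by 0.647 ± 0.373 (0.633). Of 12 heat shock genes 9 had a higher mean, with a median of 0.190, and Hsp90aa1 (0.355 ± 0.150), Hspe1 (0.216 ± 0.127) and Bag3 (0.305 ± 0.182) had adjusted p = 0.508, 0.638 and 0.645 by limma. None of these 40 genes was called. The heat shock mean correlated with the 10-gene mean at r = 0.364, and at r = 0.073 without the 2 arrays farthest from the median of the 10-gene mean.

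Marker lists of other cell types went with or against the 10 genes to different degrees, the erythroid list most strongly and in the opposite direction. All 7 measured erythroid genes had r below 0 with the 10-gene mean, and the list mean had r = -0.540 over the 19 arrays, -0.716 after group means were taken out and -0.323 without the 2 farthest arrays. The list stood at -2.14, -2.79 and -1.84 relative to wild type in Aid-Cre replicate 3, Mb1-Cre replicate 1 and Sca1-Cre tumour replicate 1. It was also low in arrays that were not among the highest in immediate early genes, with -1.72 in Sca1-Cre tumour replicate 4, -3.70 in pre-tumour replicate 1 and -1.80 in pre-tumour replicate 2. By group the erythroid mean ran from -2.14 to 1.17 in Aid-Cre, from -2.79 to 1.30 in Mb1-Cre and from -1.84 to 0.54 in Sca1-Cre tumours, from -3.70 to -0.95 in pre-tumour spleens and from -0.39 to 0.36 in wild type.

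All 12 neutrophil genes had r below 0 and all 9 B cell and all 8 T cell genes r above 0 with the 10-gene mean. The list means had r = -0.273 for neutrophil, 0.116 for B cell and 0.246 for T cell genes over the 19 arrays. After group means were taken out these were -0.487, 0.378 and 0.567. The neutrophil mean ran from -1.82 to 2.21 in Aid-Cre, from 1.67 to 2.64 in Mb1-Cre and from -0.35 to 1.62 in Sca1-Cre tumours, from -0.95 to 0.71 in pre-tumour spleens and from -1.08 to 1.05 in wild type. The B cell mean ran from -3.71 to 0.22, from -2.16 to -0.51 and from -2.22 to -0.03 in those tumour lines, from -0.36 to 0.08 in pre-tumour spleens and from -0.23 to 0.25 in wild type. The T cell mean ran from -1.89 to 0.35, from -1.28 to 0.20 and from -0.11 to 1.06 in the same tumour lines, from 0.54 to 0.78 in pre-tumour spleens and from -0.33 to 0.47 in wild type. Mb1-Cre tumour replicate 1, highest in 6 of the 10 genes, had a neutrophil mean of 1.93, a B cell mean of -1.64 and a T cell mean of 0.20. Aid-Cre tumour replicate 3 had -1.82, 0.22 and 0.35 on the same lists, and Sca1-Cre tumour replicate 1 had -0.35, -0.03 and 0.85. For macrophage, endothelial and stromal, adipocyte and exocrine pancreas genes the list mean had r between -0.195 and 0.265 over the 19 arrays and between -0.174 and 0.234 after group means were taken out. The part of cell makeup in the immediate early values was not tested.

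**Figure D5:**
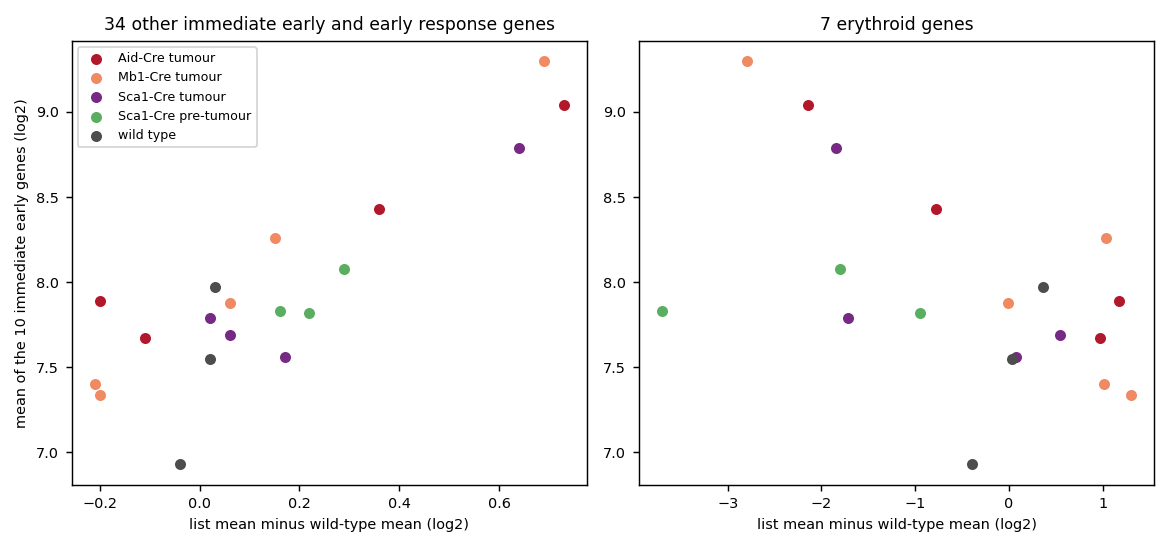
Mean of the 10 immediate early genes in each array (log2, vertical axis) against the mean of 34 other immediate early and early response genes (left) and of 7 erythroid genes (right), both minus the wild-type mean (log2), coloured by group. The 3 highest arrays, at 9.30, 9.04 and 8.79, are the 3 farthest right in the left panel, and on the right they lie between -2.79 and -1.84.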

How the data were processed

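RNA of total spleen from 19 mice, 1 array each, was extracted with Trizol and biotin-labelled, per the labels' protocols. The authors deposited log2 values, 1 per probe set and array, and the submitters' processing notes name RMA and oligo, with versions not given in the sources used here. RMA as usually run subtracts background and quantile-normalizes the arrays together, which makes levels relative and compresses low values. The values were used as deposited, and the number of arrays limits precision.

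Of 41345 probe sets, 23521 carried 1 gene symbol, 1814 several and 16010 none. Where several carried 1 symbol, that with the highest mean stood for the gene, which left 22180 genes. Groups were taken from the sample titles, which call the arrays biological replicates. Since nothing else says how the animals were related, p-values measure only the spread between these samples. A single limma 3.58.1 fit in R 4.3.3 of 5 group means (residual degrees of freedom 14, prior 2.46) gave 11 comparisons and an F-test, two-sided, with Benjamini-Hochberg adjustment over all genes and calls at adjusted p under 0.05. In the comparison of all tumours each line had the same weight. Differences are log2 with the SE of the fit.

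The members, gene lists and tests were chosen with earlier results of these data known. Text names the members, up to 3 genes per context list with the smallest p for all tumours against wild type where no gene was called, and the 10 genes closest to the 10-gene mean. List means are mean log2 values minus the wild-type mean. Alternatives were quantile, median and loess normalization, a filter to 11090 genes, other probe set rules, variance and array weights, a replicate block, a sex covariate, fewer groups, arrays left out singly, and both arrays with pancreatic transcripts left out. Replicate numbers did not pair arrays: deviations from group means had a median r of -0.0524 for arrays with the same number (33 pairs) and 0.0101 for others (110 pairs). The fit was tested on simulated data in which genes varied independently, unlike the correlated members here. Tables were made with pandas 2.3.3 and figures with matplotlib 3.10.9 in Python 3.11.15.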

Additional observations from a re-analysis of the deposited data

Results flagged for a closer look

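In each of the 10 genes and 3 tumour lines the highest and lowest array were set against the others by Dixon's criterion, and 4 of 30 groups held an array that stood apart. Chance flags about 1 in 20 groups, and the genes are not independent. Junb was 10.04 in Sca1-Cre tumour replicate 1, against 8.81 to 8.92 in the other 3 tumours of that line. Ier2 was 8.76 in the same array, against 7.57 to 7.61 in the others. Ier2 was 9.08 in Mb1-Cre tumour replicate 1, against 7.37 to 7.82 in the other 4 tumours of that line, and Atf3 was 8.52 there, against 6.33 to 6.87. All 4 are high values in those 2 spleens, and no array stood apart by this criterion in the Aid-Cre line.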

How the results depend on the processing

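No member was called in any of 11 comparisons under any of 31 alternatives: 0 of 3410 recomputed values passed, the smallest adjusted p was 0.133, and 152 uncalled values changed sign. For all tumours against wild type the median difference of the 10 genes (0.505) was 0.404 to 0.635 with single arrays left out, the lowest without Mb1-Cre tumour replicate 1, and 0.307 to 0.657 otherwise, with 0.420 without both arrays with pancreatic transcripts. The replicate block gave 0.657, with 10 of 10 members higher and 5 rather than 3 at an unadjusted p under 0.05. Of the other alternatives, the sex covariate and any fit without wild type replicate 2 left 0 such members, and leaving out Aid-Cre tumour replicates 2 or 3, Mb1-Cre tumour replicates 2 or 3, Sca1-Cre tumour replicates 1 or 4, pre-tumour replicate 3 or wild type replicate 1 left Jun alone. With only the compared groups in the fit, Jun alone was left too, and with array weights or without wild type replicate 3 there were 4. For Aid-Cre tumours the count of 2 was 0 with the sex covariate, without wild type replicate 2 and when Aid-Cre tumour replicate 3 was dropped. It was 1 without wild type replicate 1, and 4 without Mb1-Cre tumour replicate 1 or with only the compared groups. For Mb1-Cre tumours the count of 0 was 3 with array weights and 2 with cyclic loess or the replicate block. For Sca1-Cre tumours the count of 1 was 3 with only the compared groups and 2 with array weights, and for pre-tumour spleens the count of 0 was 3 and 2 under those alternatives. In the comparisons not involving wild type, only members higher in the first-named group were counted under the alternatives, and there were at most 2. With single arrays left out, the median ran from 0.463 to 0.868 for Aid-Cre, from 0.122 to 0.588 for Mb1-Cre and from 0.217 to 0.603 for Sca1-Cre tumours, and from 0.162 to 0.502 for pre-tumour spleens, each against wild type. The highest values with 1 array left out came without replicate 2 (0.110) for Sca1-Cre tumours, without replicate 1 (0.549) for Aid-Cre tumours and without replicate 4 (0.291) for Mb1-Cre tumours, each against pre-tumour spleens. Between lines they were 0.517 for Aid-Cre against Mb1-Cre, without Mb1-Cre replicate 1, 0.573 for Aid-Cre against Sca1-Cre, without Aid-Cre replicate 1, and 0.294 for Mb1-Cre against Sca1-Cre, without Sca1-Cre replicate 1.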
